A study of Mus musculus with 8 samples.

Results

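This account covers 10 genes of collagen and elastin assembly in the mouse heart: the lysyl oxidases Lox, Loxl1, Loxl2, Loxl3 and Loxl4, and the small leucine-rich proteoglycans Lum, Dcn, Bgn, Fmod and Ogn. They were taken by gene name from a table of 17911 genes, and all 10 were in it. The set was selected on measured values: Lum and Lox had been seen to differ between female and male hearts in opposite directions in this table, so every female against male value of a member below is a description and carries no test. RNA was sequenced from whole single hearts of 4 female and 4 male mice, all wild type (genotype label C57Bl6/J wt) and untreated as far as the labels say. The age is given as 4 weeks in the series text and as 4 to 6 weeks in the extraction protocol, and every heart carries batch label 1. The molecule label is total RNA, although the extraction text speaks of small RNA.

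Lysyl oxidases are secreted copper-dependent enzymes that oxidise lysine side chains of collagen and elastin, which then form the covalent cross-links that make fibres stiff and insoluble. Small leucine-rich proteoglycans are matrix proteins with a curved leucine-rich repeat core, most of them carrying sugar chains, that bind collagen fibrils and set their width and spacing. In the heart, fibroblasts are the main source of interstitial collagen and of decorin and lumican, while vascular smooth muscle cells and other cells also make lysyl oxidases.

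Reads recovered from the table summed to 51.7 M to 66.3 M per female heart and 55.0 M to 75.7 M per male heart. Cardiomyocyte markers were present in every heart, and their summed normalized read count was 4197116 to 4595502 in females and 4024971 to 4381980 in males. The 10 fibroblast markers summed to 57415 to 69654 in females and 62388 to 75006 in males, which overlap, and 0 of them passed in limma (1 at an unadjusted p under 0.05, 0 in edgeR, DESeq2 and limma-voom). The summed count of the 7 macrophage markers did not overlap, at 12308 to 14433 in females and 15365 to 18964 in males. Taken singly, 5 of the 7 had no overlap between the sexes, as had 9.35% of all genes, and Adgre1 and Cd68 overlapped. All 7 macrophage markers had negative log2 differences and 3 fell, while 0 of any of these 3 marker lists was at 0 in any heart; their part in the values below was not tested. Female replicate 3 had low values in most members. It had the lowest value of all 8 hearts in 7 of the 10 members, lay below the female mean in 10 of 10, and had the lowest fibroblast marker level of the 8 (a mean log2 deviation of -0.16 from its sex). Over all genes it differed from the other female hearts by 14.9, 17.5 and 18.4 times the sampling noise, against 8.21 to 11.4 among those hearts. Pairs of male hearts ran from 9.23 to 16.4, with male replicate 5 at 15.4 from replicate 3 and 16.4 from replicate 4. A distance of this size was therefore not particular to female replicate 3. How many of all genes were lowest in female replicate 3 was not counted, so its counts of low members are not read as particular to the members. The measures of heart-to-heart variation are given without it as well.

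The members spanned a wide range of levels, with decorin at the top and Loxl4 at the bottom. Levels between genes were compared as normalized reads per kilobase (kb) of annotated exon, where a normalized read count is the number of reads divided by the size factor of that heart. Dcn (decorin, which binds type I collagen and TGF-beta) had 5203 ± 166 per kb over the 8 hearts (SD, n = 8), above 97.5% of all genes with a length. Ogn (osteoglycin) had 2909 ± 188, Bgn (biglycan, a close relative of decorin) 2486 ± 177 and Lum (lumican, a regulator of collagen fibril growth best known from the cornea) 1883 ± 217 per kb. Fmod (fibromodulin, which is abundant in tendon and, like lumican, binds collagen I) was far lower, at 277 ± 41.9 per kb. Loxl1, the enzyme most tied to elastic fibres, led the lysyl oxidases with 1152 ± 147 per kb. Loxl2 had 223 ± 29.9, Loxl3 106 ± 4.32, Lox 85.1 ± 17.0 and Loxl4 20.7 ± 3.17 per kb.

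In this order the ranges over the 8 hearts did not overlap for 6 of the 9 neighbouring pairs. They overlapped for Ogn and Bgn, for Fmod and Loxl2, and for Loxl3 and Lox. Within single hearts Ogn exceeded Bgn in 8 of 8, Fmod exceeded Loxl2 in 7 of 8 and Loxl3 exceeded Lox in 7 of 8. The place of Bgn depends on its length: its annotated exons cover 6099 bases but its longest transcript 2666, and by the longest transcript Bgn had 5687 per kb and came before Ogn (2909). Loxl1 made up 72.5% ± 1.38 of the summed lysyl oxidase reads per kb and Lox 5.37% ± 0.961 (SD, n = 8). Among the 5 proteoglycans Dcn made up 40.8% ± 1.14, Ogn 22.8% ± 1.47, Bgn 19.5% ± 1.14, Lum 14.8% ± 1.65 and Fmod 2.17% ± 0.291 of the summed reads per kb. All these shares use annotated exon length, and the SDs do not cover that choice. By the longest transcript Bgn had 5687 and Dcn 6474 per kb, so the proteoglycan shares would differ, most of all that of Bgn. Shares by that length were not computed.

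**Figure D1:**
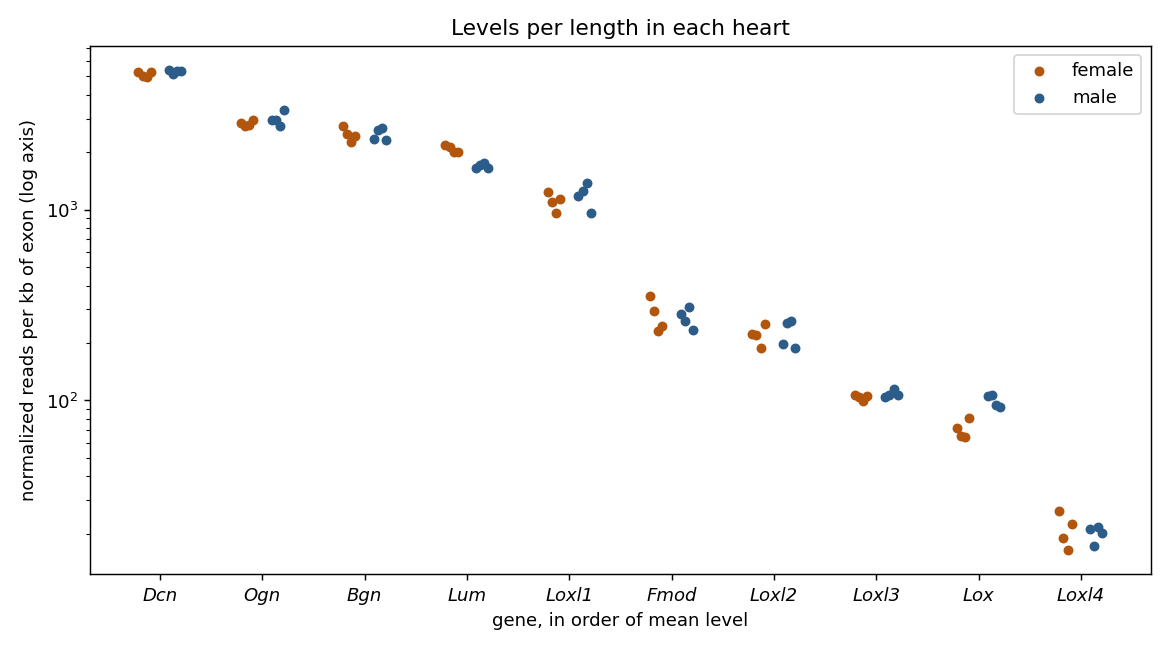
Normalized reads per kb of exon (log axis) of the 10 members, in order of their mean level, with 1 point per heart (females left, males right within each gene). Dcn lies highest at a mean of 5203 per kb and Loxl4 lowest at 20.7 per kb, and Lox and Lum are the genes whose female and male points separate.

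Among the lysyl oxidases, Lox was lower in every female heart than in every male heart, and the other 4 enzymes overlapped between the sexes. Lox (ENSMUSG00000024529, chromosome 18, 52516067 to 52529867, minus strand, mm10) encodes the founding enzyme of the family, whose loss in mice is lethal around birth with ruptured arteries. Its normalized read count was 342, 312, 307 and 389 in female replicates 1 to 4, against 502, 509, 455 and 439 in male replicates 1, 3, 4 and 5. The highest female heart (389) lay below the lowest male heart (439). The means were 337 ± 37.5 in the female and 476 ± 34.1 in the male hearts (SD, n = 4 each), a log2 difference of -0.50 (SE 0.09) on the log2(value + 1) scale. In whole-heart RNA, fewer cells of a type and less RNA per cell cannot be told apart. An unmeasured antisense gene, AC161119.1, overlaps the 5' end of Lox; whether counting used strand is not given in the sources used here, so reads from it cannot be told apart from Lox reads.

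The other lysyl oxidases had small differences with wide intervals. Loxl1 (chromosome 9, 58287738 to 58313186) had 4097, 3608, 3174 and 3769.8 in females and 3878, 4140.0, 4563 and 3152 in males. Its lowest heart was male replicate 5 and its highest male replicate 4, so the male hearts enclosed all female hearts. The log2 difference was -0.10, with a 95% interval of -0.39 to 0.20 from limma. Loxl2 (chromosome 14, 69609068 to 69695834), which can cross-link the collagen IV of basement membranes, had 1209.5, 1189, 1014 and 1352 in females and 1068, 1383, 1407 and 1022 in males. These values also overlapped, and the log2 difference was -0.03 (95% interval -0.32 to 0.27). Unmeasured genes on the opposite strand, Gm27177 and Gm37513, overlap Loxl2, so reads from them cannot be told apart from Loxl2 reads. Loxl3 (chromosome 6, 83034173 to 83052562), which mouse embryos need for palate and spine development, was the steadiest of the family.

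Loxl3 had 493, 479, 457 and 484 in females and 481, 492, 528 and 495 in males, a log2 difference of -0.06 (95% interval -0.19 to 0.07). Its 3' end overlaps Htra2 on the opposite strand, which had 1329 ± 80.9 in females and 1366 ± 50.1 in males, so the source of reads in the shared stretch is uncertain. Loxl4 (chromosome 19, 42593982 to 42612813) had 112, 80.5, 69.2 and 95.0 in females and 89.7, 73.1, 92.1 and 85.7 in males. The female hearts spread more widely than the male hearts and enclosed them. Its log2 difference was 0.05, with an interval of -0.30 to 0.39. Summed per kb, the 5 lysyl oxidases gave 1527 ± 148 in female and 1647 ± 218 in male hearts (SD, n = 4 each). Lox was 4.29% to 5.07% of that sum in females and 5.08% to 6.74% in males, ranges that nearly meet.

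Among the proteoglycans, Lum was higher in every female heart than in every male heart, while Dcn, its neighbour in the genome, overlapped between the sexes. Lum (ENSMUSG00000036446, chromosome 10, 97565128 to 97572703, plus strand) had a normalized read count of 5319, 5210.0, 4918 and 4890.4 in female replicates 1 to 4. The male hearts had 4035, 4185, 4285 and 4042 in replicates 1, 3, 4 and 5. The lowest female heart (4890.4) lay above the highest male heart (4285). The means were 5084 ± 213 in the female hearts and 4137 ± 120.4 in the male hearts (SD, n = 4 each), a log2 difference of 0.30 (SE 0.04). Lum made up 15.5% to 16.8% of the summed proteoglycan reads per kb in females and 12.8% to 13.7% in males. The size of these shares depends on the annotated exon length used for Bgn and Dcn.

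Dcn (chromosome 10, 97479609 to 97518143, plus strand) ends 46984 bases before Lum begins, and the next gene on the other side, the cornea proteoglycan gene Kera, is not among the genes analysed here. Dcn had 30654, 29302, 28776 and 30671 in females and 31481, 29837, 31016 and 31263 in males. The sexes overlapped, with a log2 difference of -0.05 (95% interval -0.12 to 0.02). Epyc (epiphycan, a cartilage proteoglycan and the last gene of this cluster) was low, at 80.5 ± 19.3 in females and 60.4 ± 21.6 in males, and did not pass (log2 difference 0.45, limma adjusted p = 0.440).

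Bgn (chromosome X, 73483602 to 73495933, plus strand) is the X-linked member. It had 16682, 15204, 13820.0 and 14908 in females and 14317, 15971, 16339 and 14058 in males. The sex means were almost equal, at 15153 ± 1180.0 and 15171 ± 1151 (SD, n = 4 each, females first), and the 95% interval of the log2 difference ran from -0.15 to 0.14. Fmod (chromosome 1, 134037254 to 134048277) had 1169, 972, 767 and 816 in females and 938, 858, 1024 and 777 in males, a log2 difference of 0.04 (95% interval -0.28 to 0.36). Female replicate 1 was the highest of the 8 hearts for both genes and female replicate 3 the lowest.

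Ogn (chromosome 13, 49608046 to 49624501) had 7262, 7064, 7151 and 7605 in females and 7553, 7572, 7003 and 8499 in males. It was highest in female replicate 4 among females and in male replicate 5 among males, which are the hearts with the fewest reads of their sex (51.7 M and 55.0 M). The log2 difference was -0.07 (95% interval -0.18 to 0.04). Ogn lies inside Cenpp, which runs on the opposite strand and had 113 ± 10.5 in females and 111 ± 18.0 in males. Summed per kb, the 5 proteoglycans gave 12790 ± 466 in female and 12726 ± 114 in male hearts (SD, n = 4 each).

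Of the 10 members, 1 was called higher and 1 lower in females by limma at an adjusted p under 0.05, where 0.475% of all 17911 genes were called higher and 0.687% lower (1.16% together). Those 2 are the genes that brought the set to notice, so nothing is read from the count. The same 2 were the members without overlap between the sexes, as were 9.35% of all genes. By the thresholds of the series text (unadjusted p under 0.05 and a log2 difference above 0.6 in size) 0 members passed, beside 1.50% of all genes. The members' median log2 difference was -0.04, beside 0.0023 over all genes. The authors' deposited table lists log2 fold changes of -0.50 for Lox and 0.30 for Lum. With each heart left out in turn, the log2 difference lay between 0.28 and 0.32 for Lum and between -0.57 and -0.46 for Lox. The count of called members was 1 when female heart 2, female heart 3, male heart 1 or male heart 3 was left out, where Lox stood at -0.46, -0.46, -0.47 and -0.47, and nothing is read from that count either.

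**Figure D2:**
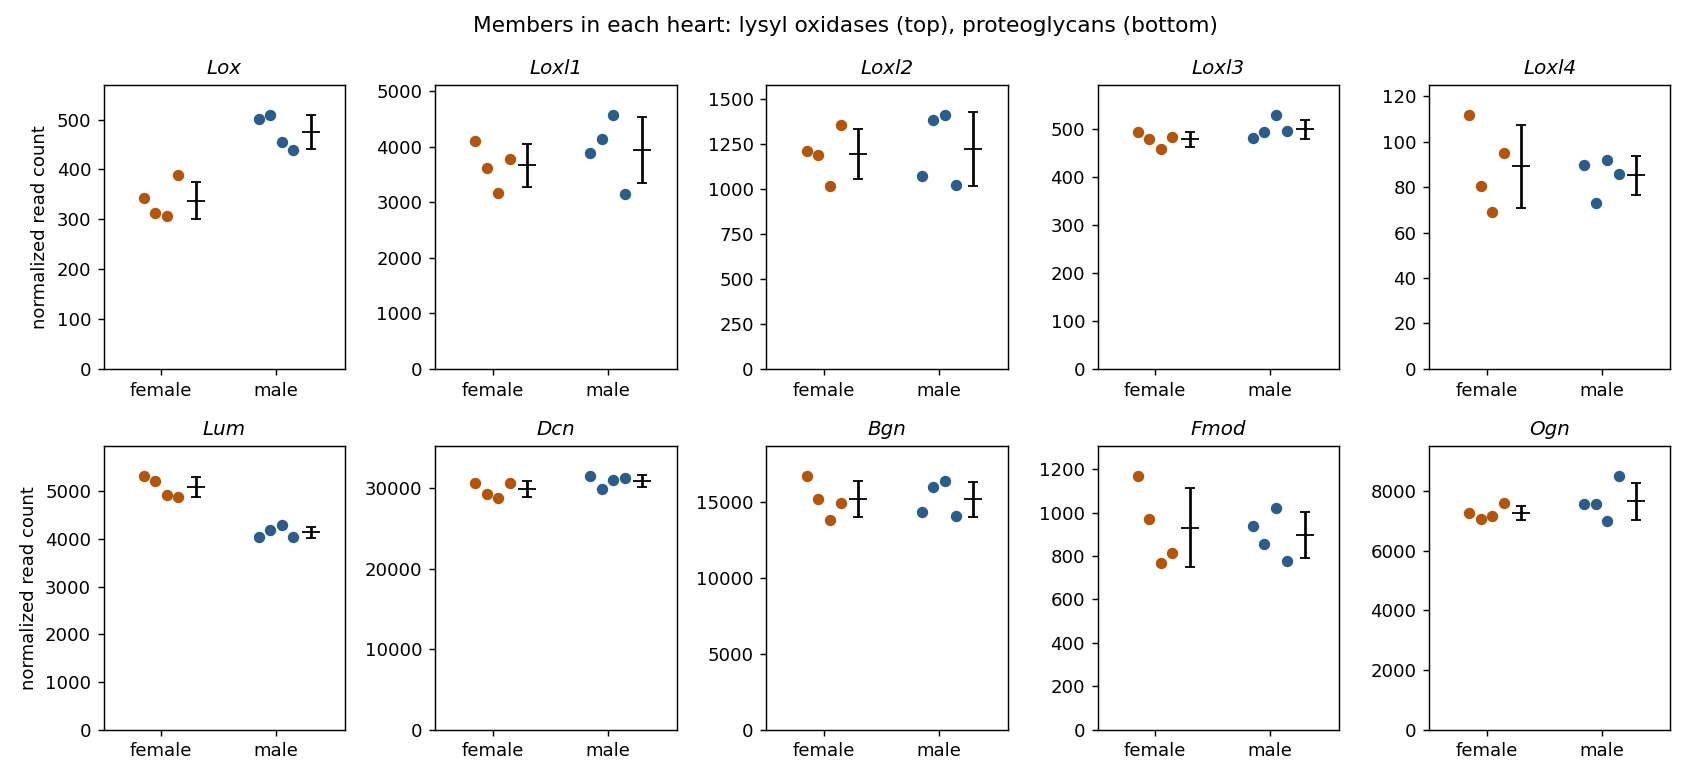
Normalized read counts of the 5 lysyl oxidases (top row) and 5 proteoglycans (bottom row) in each heart, females left and males right, with the mean and SD of each sex as a bar beside the points. Each axis starts at 0. In Lox the female points (307 to 389) lie below the male points (439 to 509), in Lum the female points (4890.4 to 5319) lie above the male points (4035 to 4285), and in the other 8 genes the sexes overlap.

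Within each sex the members differed in how much they varied from heart to heart, a measure that the choice of the genes did not use directly. For Lox and Lum it is not independent of the choice, because how clearly the sexes differ depends in part on this spread. The SD of the log2 values around the mean of each sex was 0.23 for Loxl4 and Fmod, 0.21 for Loxl2, 0.19 for Loxl1, 0.13 for Lox, 0.11 for Bgn, 0.09 for Ogn, 0.05 for Lum and Loxl3, and 0.04 for Dcn. Set beside all genes within 0.5 log2 units of the same mean level, Loxl1 varied more than 97.7% of 1898 genes, Fmod more than 96.5% of 2318, Loxl2 more than 96.5% of 2530 and Bgn more than 93.1% of 433. Dcn varied more than 20.8% of the 192 genes at its level and Loxl3 more than 6.38% of 1788. Lum was near the middle, above 54.1% of 1593 genes, as was Loxl4, above 54.4% of 1239 genes at its low level. Lox lay above 65.6% of 1688 and Ogn above 84.4% of 995. Without female replicate 3, an alternative chosen after seeing the data, the SD of Loxl4 was 0.19 and that of Fmod 0.21. Loxl1, Loxl2, Fmod and Bgn then varied more than 97.2%, 96.0%, 95.9% and 90.5% of the genes at their level, and Dcn and Loxl3 more than 22.4% and 4.31%. Loxl4 then varied more than 35.5% and Ogn more than 87.5%.

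The members deviated in a common direction in some hearts and not in others. In female replicates 1 to 4, 1, 5, 10 and 3 of the 10 members lay below the mean of their sex, and in male replicates 1, 3, 4 and 5, 6, 5, 2 and 7 did. For each of the 45 pairs of members, log2 values were set against the mean of their sex and correlated over the 8 hearts, with exact permutation of hearts within each sex (576 arrangements, two-sided) and Benjamini-Hochberg adjustment over the 45 pairs. The coefficient was positive in 37 pairs. Loxl1 and Bgn had r = 0.89 (Spearman's rho 0.88; exact permutation p = 0.00694 and 0.0104; adjusted 0.208 and 0.26), and r = 0.85 without the 2 hearts farthest from the median of Loxl1. Lum and Bgn had r = 0.88 (rho 0.81; exact permutation p = 0.0104 and 0.0278; adjusted 0.208 and 0.281), and 0.71 without the 2 hearts farthest in Lum. Loxl4 and Dcn had the highest coefficient, r = 0.92 (rho 0.81; exact permutation p = 0.0139 and 0.0729; adjusted 0.208 and 0.328). It was 0.92 without the 2 hearts farthest in Loxl4 and 0.78 without the 2 farthest in Dcn. Loxl1 and Loxl2 had r = 0.83 (rho 0.90; exact permutation p = 0.0208 and 0.0122; adjusted 0.219 and 0.26), and 0.58 without 2 hearts. Bgn and Fmod had r = 0.79 (rho 0.88; exact permutation p = 0.0434 and 0.0174; adjusted 0.244 and 0.26), and 0.55 without 2 hearts. Without female replicate 3 these 5 coefficients, in the order given, were 0.85, 0.85, 0.87, 0.77 and 0.71. Also at an unadjusted p under 0.05 were Lum and Fmod (r = 0.86), Loxl3 and Bgn (0.79) and Loxl1 and Fmod (0.76). Their exact permutation p values were 0.0382, 0.0313 and 0.0243 (adjusted 0.244, 0.234 and 0.219). Without the 2 hearts farthest in the first gene of each pair, r was 0.64, 0.64 and 0.55.

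By Pearson's r, 8 pairs had an unadjusted exact permutation p under 0.05 and 0 passed the adjustment; by Spearman's rho 0 passed as well. With 576 arrangements a single pair cannot go below an adjusted 0.0781, so no pair could pass alone. The design could pass only several pairs with small p values together. Ogn had negative coefficients in 6 of its 9 pairs, which were 6 of the 8 negative pairs in all. That count rests on male replicates 4 and 5, the hearts farthest from the median of Ogn: without them 7 of its 9 pairs were positive. Among females alone 7 of 9 were positive, and among males alone 1 of 9. Lox was not in any of the 8 pairs. Leaving out a heart changed the count of 8 pairs, to 2 without female replicate 3 (with 29 of 45 positive), 3 without female replicate 1 or male replicate 4, and 4 without female replicate 2. The mean deviation of the members was -0.15 in female replicate 3 and -0.08 in male replicate 5, the hearts whose fibroblast marker deviations were also lowest (-0.16 and -0.09). The highest member means were 0.12 in female replicate 1 and 0.08 in male replicate 4, where the fibroblast markers stood at 0.07 and 0.06. The fibroblast markers were highest in male replicate 3 (0.09), where the member mean was 0.01.

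Other marker lists and depth moved with single members as well. These coefficients are given as a description over the same 8 hearts. Most of them were picked as among the largest of many marker and member coefficients. In each heart the genes compared come from 1 library and share its depth. The macrophage markers had r = 0.94 with Bgn, 0.90 with Loxl1 and 0.85 with Lum, where the fibroblast markers had 0.89, 0.85 and 0.67. Fmod had r = 0.91 with the epicardial and mesothelial markers, Loxl4 0.90 with the adipocyte markers and Lox -0.86 with the cardiomyocyte markers. The adipocyte markers summed to 11556 normalized reads in female replicate 1, against 1868 to 4688 in the other hearts. Loxl4 was also highest in female replicate 1 (a log2 deviation of 0.34), and both were lowest in female replicate 3. The coefficient of Loxl4 with the adipocyte markers was not computed without female replicate 1. Total reads had r = -0.89 with Ogn and 0.72 with Lum. The part of these marker levels and of depth in the members' deviations was not tested.

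**Figure D3:**
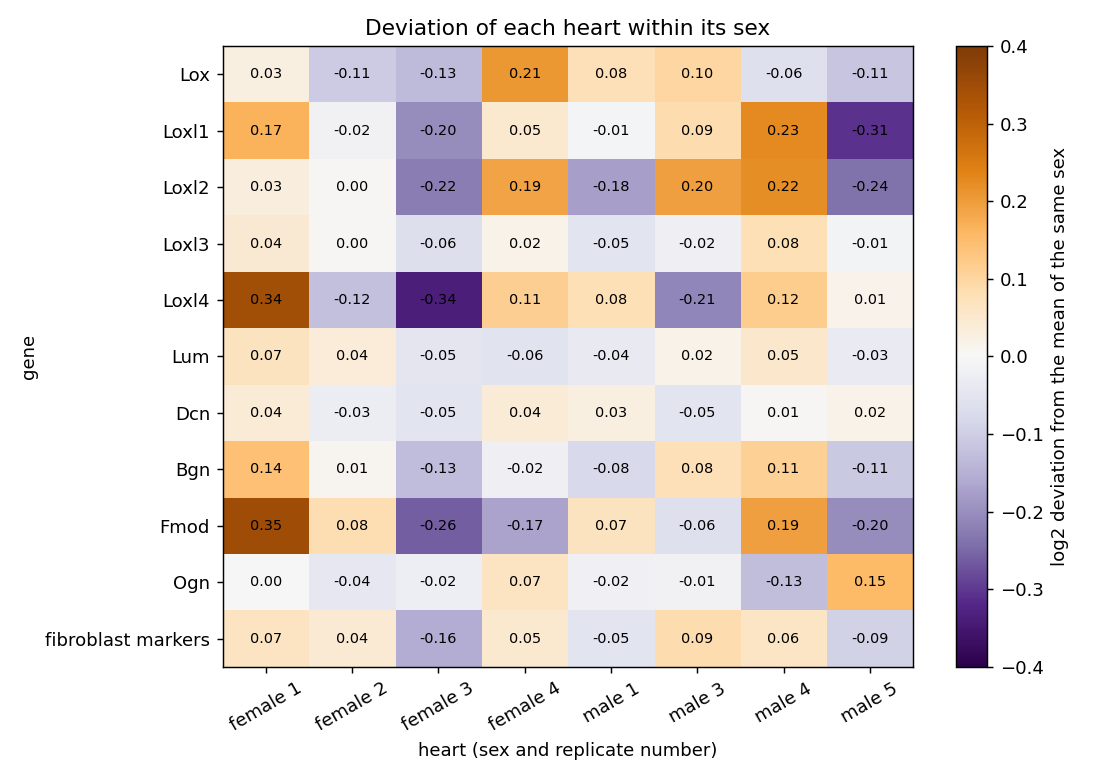
Log2 deviation of each heart (columns, female replicates left and male replicates right) from the mean of its own sex, for the 10 members and for the mean of 10 fibroblast markers (rows, bottom). The column of female replicate 3 is negative throughout, with -0.34 in Loxl4 and -0.26 in Fmod, while Dcn stays within 0.06 of its sex mean in every heart and Ogn reaches 0.15 in male replicate 5.

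Promoter bases are shown for Bgn, Fmod and Ogn, the 3 proteoglycan members with an entry in the table used, so that their composition can be set side by side. Of the 10 members, 4 had an entry in the RefSeq promoter table (Bgn, Fmod, Ogn and Loxl4; build GRCm38.p6, the assembly of mm10). The 250 bases before the annotated start are printed on the gene's own strand, for Bgn at chrX:73483351-73483600, for Fmod at chr1:134037004-134037253 and for Ogn at chr13:49607765-49608014, all plus strand. Capitals mark matches on either strand to 5 motifs, the GC box (GGGCGG), the TATA box (TATAAA), the CCAAT box (CCAAT), the E box (CANNTG) and the AP-1 element (TGANTCA).
Bgn: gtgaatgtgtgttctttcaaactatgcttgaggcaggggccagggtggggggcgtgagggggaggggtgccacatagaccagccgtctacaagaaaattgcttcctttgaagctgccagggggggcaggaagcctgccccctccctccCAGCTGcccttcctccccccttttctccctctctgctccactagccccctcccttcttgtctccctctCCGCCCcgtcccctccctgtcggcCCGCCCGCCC
Fmod: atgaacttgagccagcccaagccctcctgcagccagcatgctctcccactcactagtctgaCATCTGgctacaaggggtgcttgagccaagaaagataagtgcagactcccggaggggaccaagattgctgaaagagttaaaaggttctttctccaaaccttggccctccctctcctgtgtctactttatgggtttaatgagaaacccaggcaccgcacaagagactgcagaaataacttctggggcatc
Ogn: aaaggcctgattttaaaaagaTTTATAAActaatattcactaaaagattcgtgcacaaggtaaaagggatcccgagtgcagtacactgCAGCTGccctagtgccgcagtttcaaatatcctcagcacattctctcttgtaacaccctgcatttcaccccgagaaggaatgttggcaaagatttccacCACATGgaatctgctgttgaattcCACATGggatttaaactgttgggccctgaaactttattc

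The 3 windows differed in composition, with a GC content of 64.4% for Bgn, 51.2% for Fmod and 42.0% for Ogn, beside a median of 52.4% over 32851 promoters of the same length. Bgn had 3 GC boxes, the last 2 of them overlapping, and 1 E box. Fmod had 1 E box and Ogn 3 E boxes, and in Ogn the TATA letters matched on both strands at 1 overlapping place far from the start. A GC box was found in 32.7% of all promoters, a TATA box in 12.4%, a CCAAT box in 33.8%, an E box in 66.2% and an AP-1 element in 6.75%. These letters are a description of the windows and show no binding.

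Outside the members, the clearest change among related genes was in Aspn. Aspn (asporin, chromosome 13, 49544443 to 49567565) encodes a close relative of decorin that binds collagen and TGF-beta and lacks the sugar attachment site, and it lies in the same cluster as Ogn. Its normalized read count was 1422, 1415, 1267 and 1441 in females, against 1677, 1889, 1759 and 1697 in males. All female hearts lay below all male hearts. The means were 1386 ± 80.2 in female and 1755 ± 95.7 in male hearts (SD, n = 4 each), and Aspn fell by 0.34 on the log2 scale (SE 0.05, limma adjusted p = 0.0097). The call held whichever heart was left out (log2 differences of -0.36 to -0.30) and ended in limma without its trend and robust options (adjusted p = 0.106) and with a replicate block by title number (0.0684) or by library code number (0.217). Like Ogn, Aspn lies inside Cenpp on the opposite strand, and the reads of both strands cannot be told apart; Cenpp had 113 ± 10.5 in females and 111 ± 18.0 in males.

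Of 11 measured small leucine-rich repeat genes outside the members, Aspn fell and 10 did not pass in limma, with a list median of 0.10 beside 0.0023 over all genes. Prelp (which anchors basement membranes to the matrix) is next to Fmod and had 4333 ± 201 in females and 4037 ± 125 in males (log2 difference 0.10, limma adjusted p = 0.228). Podn (podocan) had 3984 ± 507 in female and 3713 ± 629 in male hearts (SD, n = 4 each). Ecm2, in the cluster of Aspn and Ogn, had 2177 ± 52.7 in females and 2190.2 ± 105 in males, and Omd (osteomodulin), the gene next to Ogn, had 104 ± 19.3 and 114 ± 21.6 in the same order. The X-linked gene Nyx (nyctalopin, a retinal protein) was low, at 39.4 ± 9.95 in females and 60.4 ± 8.03 in males, and did not pass (log2 difference -0.63, limma adjusted p = 0.144). Chad, Chadl, Optc and Tsku had log2 differences of 0.55, 0.19, 0.24 and -0.02. By length, Prelp (1158 ± 61.3 per kb), Podn (901 ± 128) and Aspn (667 ± 90.7) lay between Lum and Fmod (SD, n = 8).

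**Figure D4:**
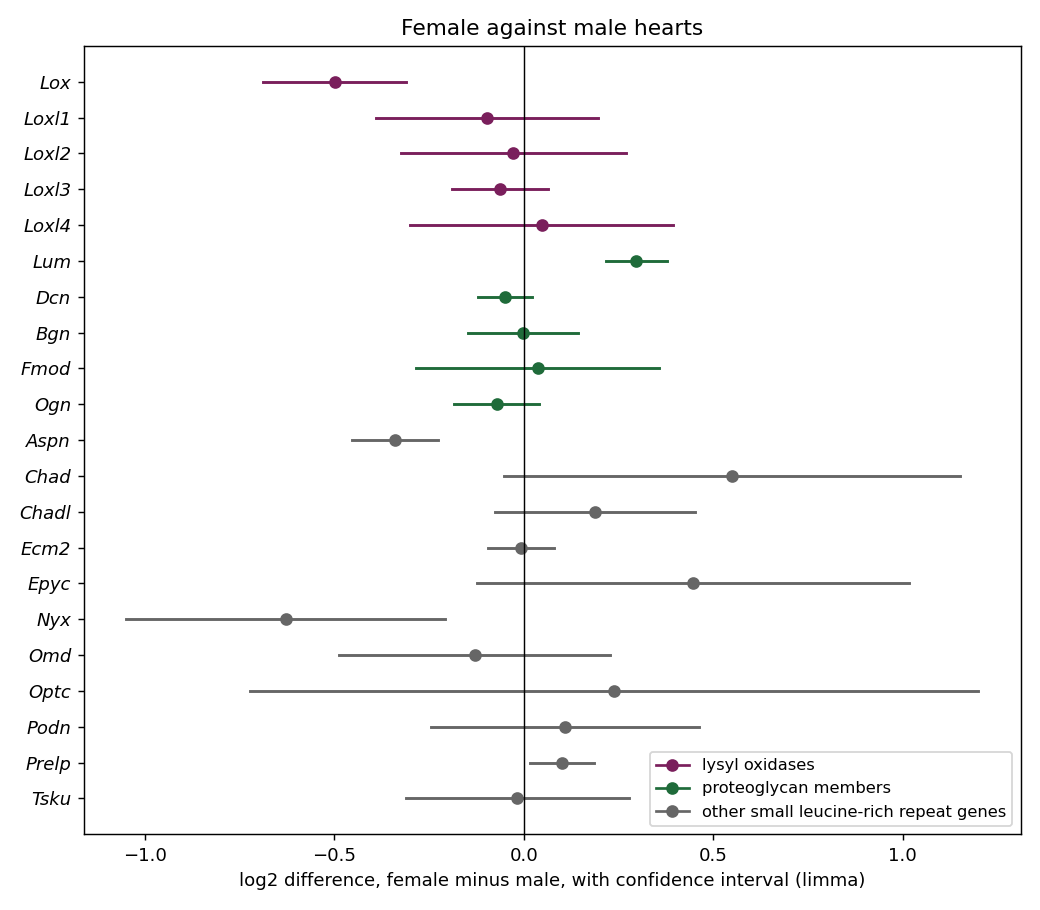
Log2 difference, female minus male, with its 95% limma interval for the lysyl oxidases, the 5 proteoglycan members and 11 other small leucine-rich repeat genes, from top to bottom. Of the genes outside the members, the intervals of Aspn, Nyx and Prelp leave out 0, and only Aspn passed the adjusted threshold over all genes in limma. Lox and Lum lie farthest from 0 among the members. Their difference brought the set to notice, so their intervals are a description and carry no test.

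The members' surrounding pathway was described by 9 lists holding 134 measured genes outside the members, of which Fbln1 rose and Aspn fell (1.49% called, beside 1.16% of all genes). Fbln1 (fibulin 1, an elastic fibre protein that also binds fibronectin) had 10682, 10688, 9973 and 11710.2 in females and 9077, 8952, 9768 and 8815 in males. The lowest female heart was just above the highest male heart. Fbln1 averaged 10763 ± 715 in female and 9153 ± 424 in male hearts (SD, n = 4 each) and rose by 0.23 on the log2 scale (SE 0.05, limma adjusted p = 0.0405). Its call ended when any of 5 hearts was left out (female 1, female 2, female 4, male 1 and male 3), with adjusted p values of 0.0817, 0.124, 0.0754, 0.0926 and 0.115 in limma and log2 differences of 0.24, 0.24, 0.19, 0.23 and 0.22. Of the 17 elastic fibre and microfibril genes, which include the elastin and fibrillin substrates and partners of Lox and Loxl1, the other 16 did not pass, and the list median was 0.04.

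None of the other 7 lists had a call in limma, and each had a median within 0.06 log2 units of 0. Of the 16 fibrillar and associated collagens, 6 had positive and 10 negative log2 differences (median -0.04). The smallest p there was that of Col27a1, a minor fibrillar collagen gene, with 511 ± 30.9 in female and 423 ± 30.6 in male hearts (SD, n = 4 each; log2 difference 0.27, limma adjusted p = 0.0943). In that list 2 genes had an unadjusted p under 0.05, and 2 passed in DESeq2 and 0 in edgeR and limma-voom. Of 26 genes of collagen modification and processing, 12 were positive and 14 negative, and 7 had an unadjusted p under 0.05. The leading gene was P3h4, a partner of the enzymes that hydroxylate collagen lysines, at a log2 difference of 0.14 (limma adjusted p = 0.118). Of the 8 copper delivery and copper amine oxidase genes, 7 were negative and 1 had an unadjusted p under 0.05, the copper transporter Slc31a2 (-0.12, limma adjusted p = 0.269).

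The 24 measured genes of glycosaminoglycan chain synthesis, which build the sugar chains of the proteoglycans, had 13 positive and 11 negative values and 2 with an unadjusted p under 0.05. Chst14, which sulfates dermatan chains, led them at 0.16 (limma adjusted p = 0.208). The 12 receptors bound by these proteoglycans had 4 with an unadjusted p under 0.05, led by Igf1r at 0.16 (limma adjusted p = 0.156). The 12 hypoxia-induced genes had 2, led by Bnip3 at 0.21 (limma adjusted p = 0.262), and the 9 TGF-beta-induced genes had 0, with Skil at -0.09 (limma adjusted p = 0.393). In edgeR, DESeq2 and limma-voom these 4 lists, the collagen modification list and the copper list also had 0 calls. The 17 measured genes next to or overlapping a member had 0 calls in limma (1 with an unadjusted p under 0.05), with log2 differences between -0.45 and 0.65.

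The genes whose deviations within each sex were most like those of Lox over the 8 hearts were Nin (r = 0.99), Prdm11 (0.98), Chst2 (0.98), Grik5 (0.97) and Unc13a (0.97), among 11978 genes with a mean normalized read count of at least 100. For Lum they were Top2a (0.99), Fam207a (0.96), Sbno2 (0.96), Tlr7 (0.96) and Entpd2 (0.95). These are the highest of many coefficients over 8 points, and in each heart the genes compared share its library and depth. They are given as a description.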

How the data were processed

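RNA from whole hearts of 4 female and 4 male mice was sequenced, and the deposited table holds 1 signal column per heart: per the values, counts of reads scaled by the authors with a size factor for each heart (0.821 to 1.17). Multiplying back gave whole reads for 100% of values (within 0.001 reads), and these were kept for the count tests. The deposited table also gives the authors' log2 fold change and the authors' p-values (unadjusted and adjusted) per gene. Per the submitters' processing notes the build was mm10; which aligner and counter were used, and whether strand was, is not given here in the sources. The more than 80 M reads stated in the labels exceed the 51.7 M to 75.7 M reads assigned to genes.

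Log2(value + 1) of all 17911 genes in 8 hearts was fitted with limma 3.58.1 in R 4.3.3, using its trend and robust options and no covariate, and differences are female minus male; a filter of at least 1 in 4 or more hearts removed 0 genes. A gene was called when its Benjamini-Hochberg adjusted p was under 0.05. Fold changes on this scale understate those of low genes. Alternatives were edgeR 4.0.16, DESeq2 1.42.0 and limma-voom on recovered reads, other pseudocounts, filters and scalings, leaving out each heart, replicate blocks and depth. Exon lengths, gene positions and neighbours came from GENCODE vM21 for the same build. Hearts of 1 sex differed by 8.21 to 18.4 times the sampling noise (chi-square per degree of freedom, 12 pairs), so none appeared to be deposited more than once. Scripts were tested on simulated data.

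The members and gene lists were chosen with earlier results of these data known. Genes outside the members were named by rule: all measured small leucine-rich repeat genes, called genes of each other list or its gene with the smallest p, genes next to a member, and for Lox and Lum the 5 genes of most similar within-sex deviation. Cell type markers for adipocytes, epicardium, endothelium, pericytes, smooth muscle, Schwann cells, cartilage and skeletal muscle had 0 calls in limma (8 markers at an unadjusted p under 0.05, 3 calls in DESeq2, 0 in edgeR and limma-voom), fibroblast markers 0, cardiomyocyte markers 1 and macrophage markers 3.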

Additional observations from a re-analysis of the deposited data

Results flagged for a closer look

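In groups of 4 hearts, a single heart stood far from the other 3 in 3 of the 58 groups examined (members and named genes, each sex), where chance gives about 1 in 20. Aspn was low in female replicate 3 (1267, against 1415 to 1441 in the other female hearts). Optc was high in male replicate 3 (26.7, against 8.52 to 9.65 in the other male hearts), at a low count. Skil was low in male replicate 4 (1847, against 1932 to 1949 in the other male hearts).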

How the results depend on the processing

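The number of genes called over the whole table was 208, and became 690 with DESeq2, 35 in limma without its trend and robust options, 26 with a replicate block by library code number, and 77 to 516 when 1 heart was left out. Of the members, 2 were called; this became 0 without the trend and robust options, 0 with a replicate block by title number, 0 with the block by library code number, 0 with the thresholds of the series text (unadjusted p under 0.05 and a log2 difference above 0.6), and 1 to 2 without 1 heart. The 2 calls among other matrix genes became 4 with DESeq2, 0 without the trend and robust options, 0 and 0 with the 2 blocks, 1 in the 5 hearts with the most reads, and 1 to 2 without 1 heart; with the thresholds of the series text neither passed and the count was 1, a different gene (Nyx, -0.63). The number of member pairs past the adjusted threshold was 0 under the 13 alternatives run, but in the 8 that leave out a heart a single pair cannot go below an adjusted 0.312, so these say nothing about stability. The filter on a mean value of at least 50 kept all 45 pairs and so repeats the main result. The blocks leave few degrees of freedom, and neither numbering was taken to pair the hearts, since not every correlation of deviations was above 0.1 (0.19, -0.07 and -0.09 by title number; 0.19, -0.07 and 0.19 by library code number); the cause of the other changes was not tested. Over 23 alternatives the log2 difference ran from 0.27 to 0.34 for Lum, -0.58 to -0.46 for Lox, -0.37 to -0.30 for Aspn and 0.19 to 0.27 for Fbln1, where limma and the other tools gave adjusted p values of 4.72e-06 to 0.217 for Aspn and 0.00122 to 0.199 for Fbln1. The direction turned for Podn with total reads as a covariate (-0.0094), for Optc with the blocks (-0.017 and -0.071), for Ecm2 in the 5 hearts with the most reads (0.032) and without 1 heart (range -0.033 to 0.016), and for Tsku with total reads (0.085), with the block by code number (0.14) and without 1 heart (range -0.12 to 0.094). Among the members, the sign also turned for Bgn under 7, Loxl2 under 5, Fmod under 3, Loxl4 under 2 and Loxl1 under 1 of the 23 alternatives. For the members, the filters, limma without its trend and robust options and the thresholds of the series text return the same log2 difference by construction. These settings are part of the 23 and do not check it. The values of these members and those of Dcn, Loxl3 and Ogn stayed within 1 within-sex SD of the value given. By the longest transcript the levels of Bgn, Dcn and Loxl3 per kb became 5687, 6474 and 119.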
